A study of Mus musculus with 4 samples.

Results

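The IgG and IgM plasma cells of mouse liver tumour tissue were 122 of 24802 cells (0.492%, exact 95% interval 0.409 to 0.587%). Members were chosen by the measured values of their own Jchain, secretory and heavy chain genes. It had Jchain, the joining chain of polymeric immunoglobulin, above 0. It had at least 2 of the secretory genes Txndc5, Xbp1, Mzb1, Derl3 and Prdm1, and no Siglech. The highest of Ighm, Igha, Ighg1, Ighg2b, Ighg2c and Ighg3 was any but Igha. That gene held at least 50 of each 10000 unique molecular identifiers (UMIs) of the cell. The levels of these genes chose the cells and are therefore given as description only.

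The tissue was hepatocellular carcinoma (HCC) tissue of C57BL/6 mice at 5 months of age, with 2 samples labelled Miz1F/F and 2 labelled Miz1Δhep. Per the labels' protocols, all mice had received diethylnitrosamine (DEN, 25 mg/kg) in week 2 after birth and then carbon tetrachloride (CCl4, 0.5 ml/kg) each week, so no untreated liver is among the groups. The labels do not give the driver of the deletion. The table pools all cells under 4 barcode suffixes that no label pairs with a sample. The suffixes are called barcode sets 1 to 4, no genotype was compared, and the spread between sets is the only measure of error.

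Plasma cells are the antibody-secreting end stage of the B lineage. Prdm1 and Xbp1 shut down the B cell programme and enlarge the endoplasmic reticulum (ER), where heavy and light chains are folded, paired and glycosylated before export. A cell secretes 1 heavy chain class. IgM is made before class switching, IgG2b and IgG2c are switched classes, and IgA is the main class of mucosal surfaces, from which the liver receives portal blood and IgA-secreting cells.

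All 12 plasma cell markers listed had UMIs in the members, including Sdc1, Tnfrsf17 and Irf4, which the rule did not use. A UMI alone did not separate the classes. In B cells only Jchain, which their definition excluded, was at 0, and all 8 B cell markers had UMIs in members. Sdc1 had a UMI in 49.2% of members and 1.69% of B cells, and Tnfrsf17 in 36.1% and 0.113%. For Irf4 the shares were 29.5% and 9.8%, with B cells less deep. Members were found in every set, with 10 cells in set 1, 32 in set 2, 41 in set 3 and 39 in set 4. They were 0.389%, 0.514%, 0.850% and 0.349% of the cells of these sets. By the same rule with Igha on top, 645 cells were IgA plasma cells, so members made up 15.9% of 767 plasma cells. That share was 23.3%, 15.1%, 11.6% and 24.8% in sets 1 to 4. IgA was the more frequent class in each set. The median member had 6175 UMIs (range 366 to 37422), against 5255 in IgA plasma cells and 1455 in B cells. Members of set 1 were far deeper than the rest, with a median of 28492 UMIs against 4771, 5243 and 7527 in the other sets.

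The heavy chain constant genes lie side by side on chromosome 12 of GRCm38 (the mm10 build), on the minus strand in the GENCODE vM21 annotation. Ighm spans 113418558 to 113422730, Ighg2b 113302965 to 113307933, Ighg2c 113285325 to 113288932 and Igha 113254830 to 113260236. Ighm was the top gene in 48 members (39.3%, exact 95% interval 30.6 to 48.6%), with 4, 10, 13 and 21 cells in sets 1 to 4. Ighg2c was on top in 47 members (38.5%), with 6, 14, 16 and 11 cells. Ighg2b was on top in 21 members (17.2%), with 0, 7, 8 and 6 cells. Ighg1 and Ighg3 were on top in 3 members each, and all 3 Ighg1 cells were in set 3. IgM and IgG2c thus occurred in every set, and any Ighg gene was on top in 74 members (60.7%).

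**Figure D1:**
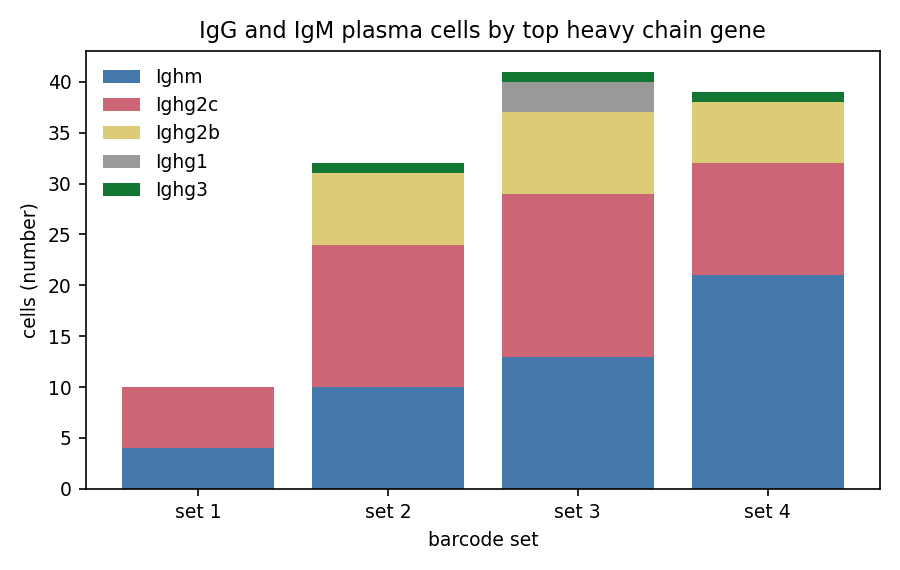
Number of IgG and IgM plasma cells (y axis) in each barcode set (x axis), stacked by the heavy chain gene with the highest level in the cell. Ighm and Ighg2c are seen in all 4 sets, and Ighg1 in set 3 only (3 cells).

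The top heavy chain gene was usually nearly alone. It held a median of 99.28% of heavy chain constant UMIs in IgM members and 98.93% in IgG members. Its level was a median of 748 per 10000 UMIs in IgM members, 1052 in Ighg2c members, 1008 in Ighg2b members and 1541 in IgA plasma cells. IgM members ran from 50 to 2235 per 10000, and their median was 153.6 in set 2 against 1118 in set 3. Just outside the level limit, 11 cells lay between 40 and 50 per 10000, and 5 of them had a UMI of Ms4a1, the B cell surface protein CD20. Just inside it, 5 members lay between 50 and 60, all with Ighm on top, and 4 of them had Ms4a1.

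**Figure D2:**
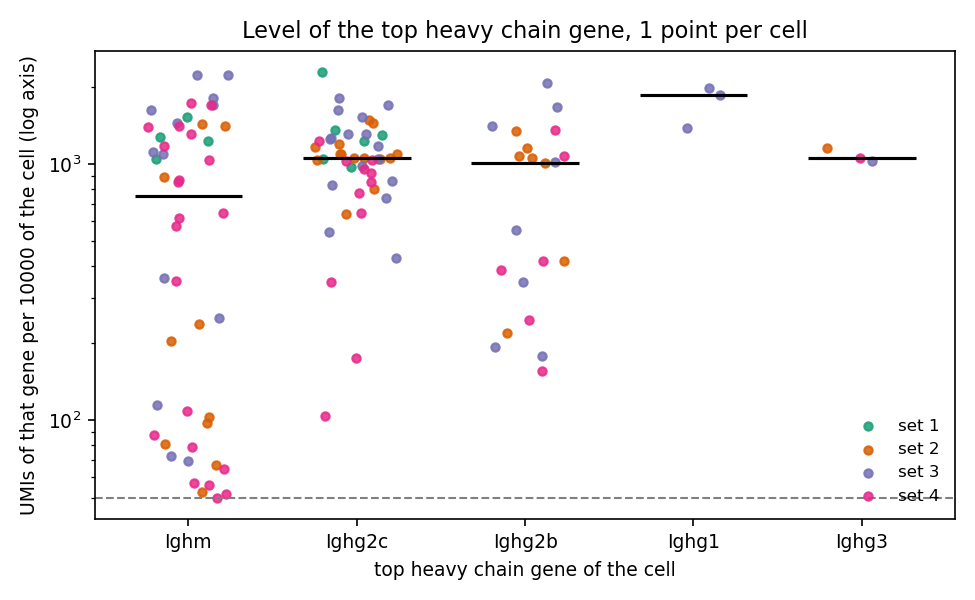
UMIs of the top heavy chain gene per 10000 UMIs of the cell (log axis), 1 point per member, by top gene and coloured by barcode set; bars are medians and the dashed line is the limit of 50. The Ighm column reaches down to the limit, while the lowest Ighg2c cell is at 104.

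The low end of the IgM members carried B cell genes. The 21 members under 200 per 10000, of which 16 had Ighm on top, had Jchain at 4454 UMIs per 1000000 (CPM), against 41690 CPM in the other 101 members. Ms4a1 had a UMI in 15 of these 21 cells and in 17 of the other 101. H2-Aa, a class II antigen presentation chain, was at 1757 CPM in them and 243.9 CPM in the others. The part of B cells or mixed droplets in these values was not tested.

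UMIs of a second class were common in IgM and IgG members. Igha had a UMI in 39 of 48 IgM members and 71 of 74 IgG members, and in 52.4% of T cells, whose median depth was 2254 UMIs against 5177.5 and 6393. Ighm had a UMI in 36.5% of IgG members and 21.0% of T cells. Igha stood at 4745 CPM in IgM members, 900.8 CPM in IgG members and 340.5 CPM in T cells. One IgM member of set 3, in which Ighm held 49.9% of heavy chain constant UMIs, had 1666 of the 1804 Igha UMIs of IgM members. Without it they had 377.8 CPM.

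Light chains, which the rule did not use, were mostly kappa. The kappa gene Igkc and the lambda genes Iglc1 to Iglc4 were compared by UMIs. Lambda made up 4.69% of light chain UMIs in members, with 0.975%, 3.28%, 10.9% and 6.01% in sets 1 to 4. Lambda was counted as on top where the summed UMIs of Iglc1 to Iglc4 exceeded those of Igkc. It was on top in 13 of 122 members, namely 10 of 48 IgM members (20.8%) and 3 of 74 IgG members (4.05%). Lambda was on top in 3.57% of IgA plasma cells and 5.69% of B cells. By set, the IgM members with lambda on top were 0 of 4, 3 of 10, 4 of 13 and 3 of 21. The IgG members were 0 of 6, 1 of 22, 1 of 28 and 1 of 18. The share by cells was thus higher in IgM than in IgG members in sets 2, 3 and 4, on 10 lambda cells, while the share by UMIs was 3.70% in IgM and 5.17% in IgG members. Of the 10 IgM cells with lambda on top, 9 had an Ighm level below the IgM median, and their own median level was 156.1 per 10000. At 200 per 10000 or more, lambda was on top in 5 of 32 IgM members (15.6%) and 3 of 69 IgG members (4.35%).

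Members and IgA plasma cells were then compared gene by gene within each set. The value is the log2 ratio of CPM after adding 10 CPM, which depends on that addition where a class has few UMIs. A gene was called when it was at least 2-fold apart in the same direction in every set that held 10 or more cells of each class. Few genes separated the classes. Of 7919 genes tested, 5 were called higher in members (0.0631%) and 1 lower (0.0126%). The 5 were Slpi, Oosp1, Ly6c2, Wnt10a and Ms4a1, and the 1 was Ccr10. The median over all genes was -0.03, and 14.4% of genes had the same direction in all 4 sets.

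Slpi, a secreted inhibitor of serine proteases (chromosome 2, 164354070 to 164389095, minus strand), stood at 10300, 1919, 4509 and 1442 CPM in members of sets 1 to 4. IgA plasma cells had 1548, 168.6, 502.1 and 653.1 CPM. Members were higher in every set, least so in set 4, with a median log2 ratio of 2.93 (range 1.13 to 3.43). One cell of set 1 held 26.0% of the members' Slpi UMIs, and without it the ratio in that set was 2.10 in place of 2.73. The call was kept in 12 of 17 alternative settings, and the median ranged from 2.64 to 3.42. Leaving immunoglobulin genes out of the totals, averaging over cells, thinning cells to 1000 UMIs, lowering the level limit to 20 and removing cells with markers of another lineage each ended it.

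Ly6c2, a surface protein anchored by a lipid (chromosome 15, 75108158 to 75111970, minus strand), stood at 1208, 1341, 988.1 and 1091 CPM in members. IgA plasma cells had 430.3, 330.1, 262.5 and 326.9 CPM. The 2 ranges did not overlap, and the median log2 ratio was 1.79 (range 1.47 to 1.99). Oosp1 (chromosome 19, 11667460 to 11691150, minus strand) stood at 141.0, 86.1, 94.6 and 71.3 CPM in members and at 14.6, 8.31, 13.2 and 18.3 CPM in IgA plasma cells. Its median log2 ratio was 2.28, and it had 0 UMIs in T cells. The calls of Ly6c2 and Oosp1 were kept in all 17 settings run for each.

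Ccr10, the receptor for the epithelial chemokines CCL27 and CCL28 (chromosome 11, 101172997 to 101175443, minus strand), was lower in members. It stood at 50.6, 49.2, 41.6 and 41.6 CPM, against 203.8, 141.3, 210.3 and 227.9 CPM in IgA plasma cells. Every set of members was below every set of IgA plasma cells, with a median log2 ratio of -1.96. Ccr10 had a UMI in 20 of 122 members and in 348 of 645 IgA plasma cells, and in 5 of 971 T cells. Thinned to 1000 UMIs per cell, the shares were 3.45% and 16.6%, and the call was lost there with a median of -1.70.

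Ms4a1 stood at 25.3, 79.96, 53.0 and 130.8 CPM in members and at 3.24, 33.2, 12.6 and 22.1 CPM in IgA plasma cells, with a median log2 ratio of 1.45. It was not called with the level limit at 200 per 10000 (0.81), with 3 of 5 secretory genes (1.02) or without cells that carried markers of another lineage (1.02). Wnt10a, a secreted Wnt ligand, had 27 UMIs in members and 4 in IgA plasma cells, so its ratio of 1.51 rests on few molecules. It lost the call in 2 of 17 settings, at 1.38 with means over cells and 0.46 after thinning. Tnfrsf17, the survival receptor BCMA, had a ratio of -0.79 and Sdc1, the plasma cell surface marker CD138, of -0.45, and neither was called. The ER entry and folding list (50 genes tested) had a median of -0.06 and no call, and N-glycosylation (20 genes) a median of -0.07 and no call.

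**Figure D3:**
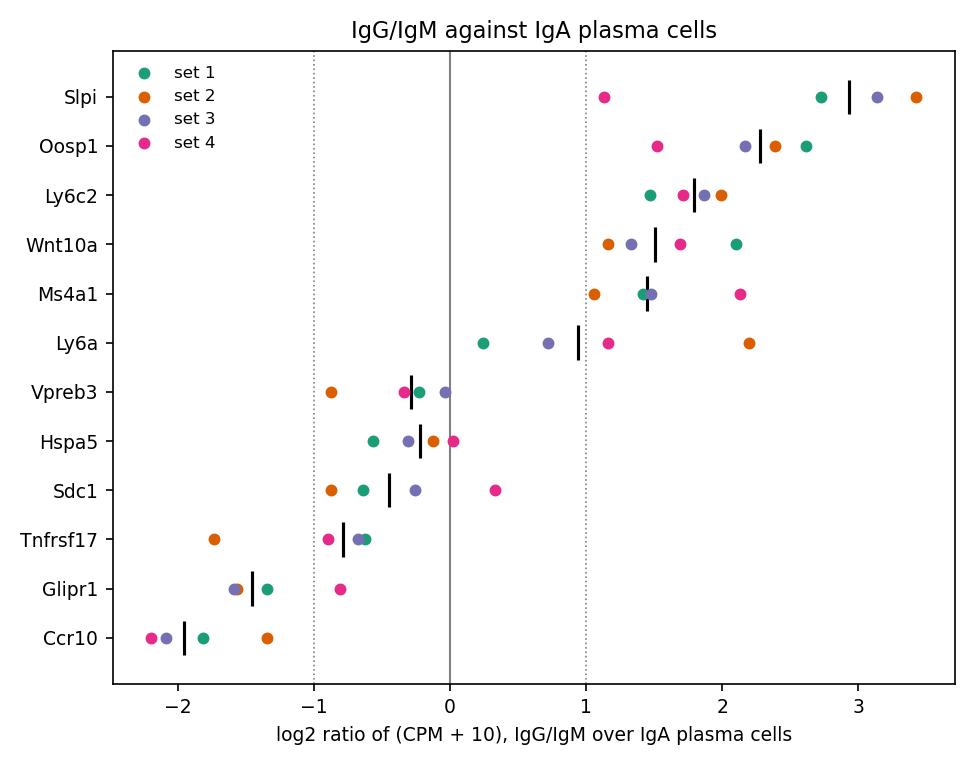
Log2 ratio of (CPM + 10) in IgG/IgM over IgA plasma cells (x axis) for 12 genes (y axis), 1 point per barcode set, with the median as a bar and dotted lines at 2-fold. Slpi, Oosp1, Ly6c2, Wnt10a and Ms4a1 lie beyond 2-fold on the right in all 4 sets, and Ccr10 on the left.

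Within the members, Slpi and Vpreb3 differed between IgM and IgG members. IgM members were compared with IgG members in sets 2, 3 and 4, since set 1 held only 4 IgM cells. Of 2557 genes tested, 9 were called higher in IgM members (0.352%) and 23 lower (0.899%), and the median over all genes was 0.02. The counts were 64 and 77 without set 3, and 17 and 46 without set 2. Without set 4, 18 were higher. Each of these runs had 2 sets to meet the call in place of 3.

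Slpi stood at 2295, 6734 and 2539 CPM in IgG members of sets 2, 3 and 4. In IgM members it had 0 UMIs in set 2 and stood at 156.6 and 318.8 CPM in sets 3 and 4. Against the level of 3 UMIs in set 2 (112.8 CPM), IgG members were at least 20.4-fold higher. In set 1, IgG members had 14910 CPM and IgM members 1888 CPM. Over all sets IgM members had 662.8 CPM and IgG members 6950 CPM. One IgM cell of set 1 held 59.9% of the IgM UMIs of Slpi, and without it IgM members had 289.8 CPM. In sets 2, 3 and 4 IgM members were also below IgA plasma cells, which had 168.6, 502.1 and 653.1 CPM. Thinned to 1000 UMIs, 4 of 44 IgM members (9.09%), 38 of 72 IgG members (52.8%) and 130 of 625 IgA plasma cells (20.8%) had a Slpi UMI. Ighg2b and Ighg2c members had similar shares, 52.6% and 53.2%.

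Vpreb3 (chromosome 10, 75943057 to 75949657, plus strand), a protein that binds immunoglobulin chains in the ER of B lineage cells, was nearly absent from IgM members. They had 1 UMI in 48 cells, against 157 UMIs in 74 IgG members, a ratio of 90.5 with an exact 95% counting interval of 16.01 to 3598. By set, IgG members had 296.9, 95.6, 223.1 and 305.6 CPM, and IgM members 0, 0, 0 and 6.01 CPM. IgA plasma cells lay at 226.5, 155.5, 152.2 and 202.7 CPM. Vpreb3 had a UMI in 1 of 48 IgM members, 42 of 74 IgG members, 281 of 645 IgA plasma cells and 822 of 3552 B cells. Set by set, the values of IgM members were below those of each of the other classes. In set 2, however, the low-count level used above for Slpi in IgM members (112.8 CPM) exceeded the 95.6 CPM of IgG members. The 0 UMIs of IgM members in set 2 therefore cannot show a difference from IgG members there, although the call counted that set. The calls of Slpi and Vpreb3 between IgM and IgG members were kept in all 15 settings run for each.

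Other genes called lower in IgM members of sets 2, 3 and 4 were Sdc4, a heparan sulphate proteoglycan (median log2 ratio -1.99), and Bst2, an interferon-induced membrane protein (-1.44). Ndufa1, a subunit of respiratory complex I (-1.16), and Dusp1, a phosphatase of MAP kinases (-1.05), were also called. Sdc4 went the other way in set 1, on few UMIs. IgM members had 18 Sdc4 UMIs over all sets and 13 in sets 2 to 4, and IgG members 56 and 55. Thinned to 1000 UMIs, Sdc4 had a UMI in 6.82% of IgM and 8.33% of IgG members, and Bst2 in 18.2% and 20.8%. Dusp1 lost the call in 8 of 15 settings and Ndufa1 in 3. The keratins Krt8 and Krt18 were also called lower, at -2.78 and -2.44, but 1 IgG cell held 78.9% and 84.6% of their UMIs. Cybb, the catalytic subunit of the phagocyte oxidase, was higher in IgM members of sets 2, 3 and 4, at 338.3, 246.1 and 222.6 CPM against 132.4, 80.1 and 94.0 CPM. In set 1 it was lower in IgM members, on few UMIs. IgM members had 72 Cybb UMIs over all sets and 68 in sets 2 to 4, and IgG members 60 and 48. Sums of 6 macrophage and monocyte markers in sets 2, 3 and 4 were 1767, 55.9 and 962.4 CPM in IgM members. They were 242.7, 74.4 and 241.0 CPM in IgG members, and their part in the Cybb result was not tested. Cybb lost the call in 4 of 15 settings, with medians of 1.08 to 1.70 in them. Rel, an NF-kB subunit, was called higher at 1.75 and lost the call with means over cells, where its median was 2.10. Rel stood at 633.4 CPM in B cells, 175.7 CPM in the 21 members under 200 per 10000 and 28.6 CPM in the other 101. IgM members had 81.5 CPM, and 47.4 CPM at 200 per 10000 or more, against 19.7 CPM in IgG members. The part of B cells in the Rel result was not tested.

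The ER entry and folding list had a median of -0.47 in IgM against IgG members, with 24 of 50 genes lower in all 3 sets and none called. The cytosolic ribosome list had a median of 0.45, with 22 of 24 genes higher in all 3 sets and none called. Over all genes tested, 31.2% had the same direction in all 3 sets, with higher and lower counted together. Class II genes had a median of 1.66 but differed in sign between sets, at 2.27, -0.37 and 1.66.

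**Figure D4:**
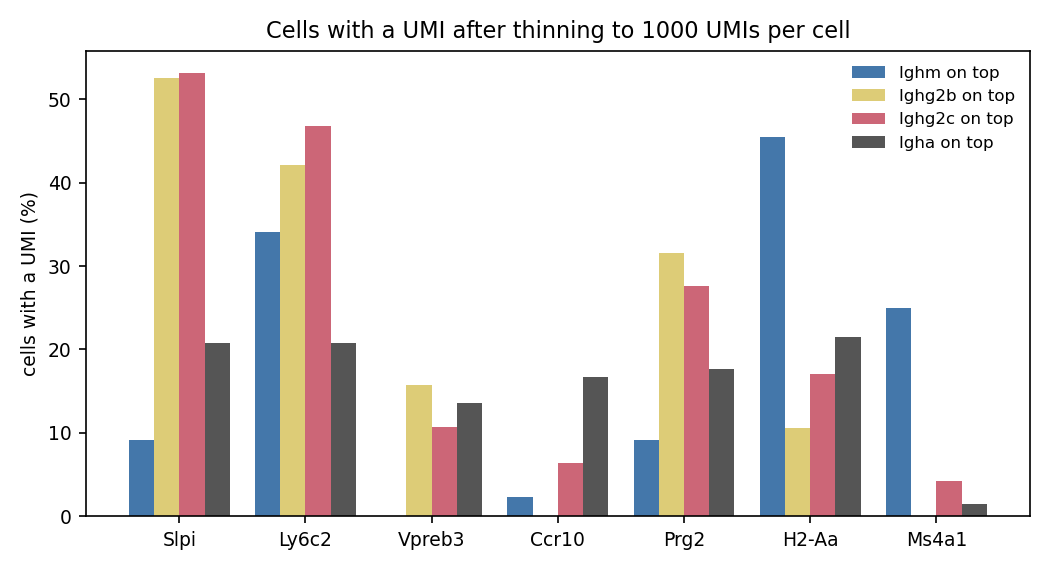
Percentage of cells with a UMI of each gene after thinning every cell to 1000 UMIs, by top heavy chain gene. Slpi is found in 52.6% and 53.2% of Ighg2b and Ighg2c cells but 9.09% of Ighm cells, and Ccr10 is highest in Igha cells at 16.6%.

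Compared with B cells, members had many ER entry and folding genes high and most listed B cell genes low. B cells were 3552 cells with at least 2 of 4 B cell surface genes, Cd79a, Cd79b and Ms4a1 among them, and no Jchain. Of 10062 genes, 85 were called higher in members (0.845%) and 710 lower (7.06%). The median over all genes was -0.51. Immunoglobulin genes took 47.5% of the members' UMIs and 1.34% of those of B cells, and with them left out of the totals the counts were 236 higher and 196 lower.

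Of 50 genes of ER entry and folding, 20 were called higher and none lower, where 0.845% and 7.06% of all genes were. Of the 50, 35 were higher in all 4 sets and 1 was lower in all 4. Among all genes 52.0% had the same direction in all 4 sets, with higher and lower counted together. The list had a median of 1.26 and set medians of 0.92, 1.47, 1.56 and 1.28. These genes share a pathway with the secretory genes that chose the members, so the list is not independent of the rule. Edem2, which acts in the disposal of misfolded glycoproteins, stood at 358.0, 233.7, 306.6 and 312.1 CPM against 21.3, 11.2, 31.9 and 22.3 CPM in B cells (median log2 ratio 3.42). Ssr4, a subunit of the translocon-associated complex, had a ratio of 3.27. Sec11c, of the signal peptidase, had 2.71, and Hsp90b1, the ER chaperone GRP94, 2.50. Hspa5, the chaperone BiP, stood at 198.9, 1882, 1321 and 639.1 CPM against 246.8, 696.2, 683.7 and 341.4 CPM. It was lower in set 1 and higher in the other sets, and was not called. It was called higher, at 1.63, with immunoglobulin genes left out of the totals. Without cells that carried markers of another lineage it was called at 1.12, but set 1 then had too few members and was not compared. Of 20 N-glycosylation genes, 4 were higher, namely Lman1, Fut8, Ddost and Rpn1. Other secretory lists differed less. Of 19 ER to Golgi transport genes 1 was called higher, with a list median of 0.47 and -0.15 in set 1. Of 8 secretory transcription factors 1 was called higher, with a list median of 0.24 and set medians of -0.11, 0.05, -0.15 and 0.66.

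The promoters of some of these genes hold the ER stress response element, a site bound by ATF6 and XBP1 in the unfolded protein response. The letters searched were CCAAT, any 9 bases and CCACG, on both strands, in RefSeq windows (GRCm38.p6) from 250 bases before to 50 after each start. It was found in 8 of 41 list genes with a window (19.5%) and in 37 of 27025 genes of the table (0.137%). It was in 3 of 17 genes called higher and in 5 of 24 not called. The sites are shown for 2 called genes and for Hspa5, with both ends of the element in capitals (CGTGG and ATTGG where it lies on the opposite strand), each written along the gene's strand.
Creld2: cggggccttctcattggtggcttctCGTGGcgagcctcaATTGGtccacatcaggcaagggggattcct
Dnajc3: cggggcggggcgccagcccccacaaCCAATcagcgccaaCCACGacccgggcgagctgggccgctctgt
Hspa5: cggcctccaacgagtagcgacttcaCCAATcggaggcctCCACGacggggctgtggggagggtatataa
Creld2 lies at chr15:88819495-88819563 (plus strand), Dnajc3 at chr14:118937802-118937870 (plus strand) and Hspa5 at chr2:34772000-34772068 (plus strand). Creld2 and Dnajc3 had log2 ratios of 3.17 and 2.17 and Hspa5 of 0.91.

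All 9 class II genes tested were lower in members, with a median of -3.18. One of them, Cd74, the invariant chain, had a ratio of -1.60 and lost the call in 3 settings, at -0.70 without immunoglobulin genes in the totals, -1.5 at a level limit of 20 and -1.15 with the median of all genes set to 0. H2-Aa stood at 126.6, 313.7, 185.5 and 787.8 CPM against 6101, 3448, 3605 and 4406 CPM, and the 2 ranges did not overlap. Of 12 B cell transcription factors, 10 were lower, among them Ebf1 (-4.62), Bach2 (-3.33) and Pax5 (-3.25), which hold the B cell identity. Of 14 B cell receptor and surface genes 11 were lower, but 4 of them had chosen the B cells. Without these, 7 of 10 were lower. Irf4, needed for plasma cell formation, had a ratio of -0.48 and was not called.

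Among survival and niche receptors, Tnfrsf17 (3.22), Sdc1 (2.31) and Slamf7 (2.17) were higher, 3 of 16 genes. Thinning to 1000 UMIs ended the calls of Sdc1 and Slamf7, whose medians were then 2.78 and 2.30. Slamf7 also lost the call with means over cells, at 2.16. Among homing genes Ccr10 was higher (2.42), and 7 of 20 were lower. These included the lymph node entry receptor Ccr7 (-3.24), the egress receptor S1pr1 (-2.86), and Cxcr5 (-2.75) and Cxcr4 (-2.52), which guide cells to follicles and bone marrow. Cxcr4 and Cxcr5 each lost the call in 5 of 16 settings, among them that without immunoglobulin genes in the totals. Slpi (5.46), Prg2 (4.98), Ly6c2 (4.36), Prdx4 (3.84), an ER peroxidase, and Eaf2 (3.73) had higher ratios than Edem2, the highest of the ER list. S100a8 (-3.82) and S100a9 (-3.54), neutrophil genes, were also lower. Their ratios were -1.06 and -0.10 without cells that carried markers of another lineage. Both genes are among the markers that flagged those cells, and set 1 was not compared there. These 2 values therefore cannot show where the difference came from.

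**Figure D5:**
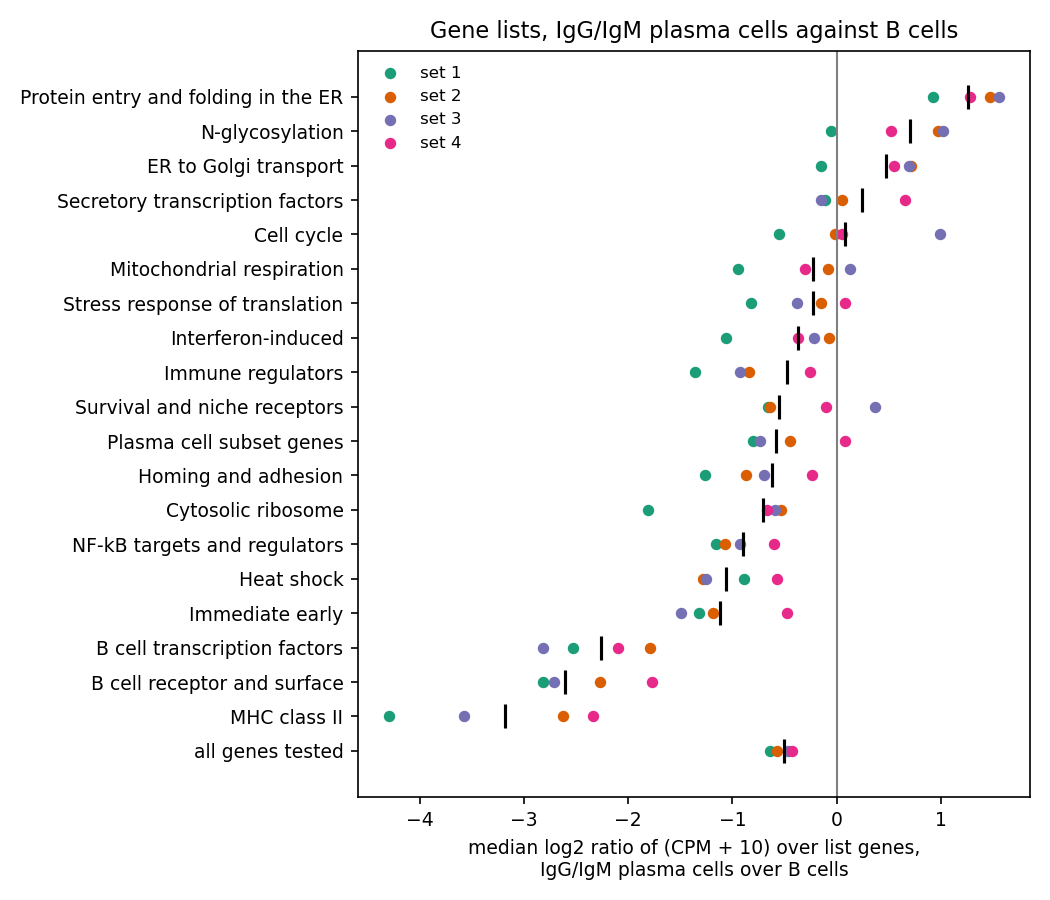
Median log2 ratio of (CPM + 10) over the genes of each list, IgG/IgM plasma cells over B cells (x axis), 1 point per barcode set and a bar at the median of the genes' own medians. ER entry and folding lies highest (1.26) and MHC class II lowest (-3.18), with all genes tested at -0.51.

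At least 2 of 5 cell cycle genes had a UMI in 9 of 122 members (7.38%), with 0, 2, 5 and 2 cells in sets 1 to 4. The share was 6.67% in IgA plasma cells and 0.197% in B cells, which were less deep. Of the members' 40 Mki67 UMIs, 15 were in the 21 members under 200 per 10000, as were 23 of 35 Top2a UMIs. By cells, Mki67 had a UMI in 3 of these 21 and in 13 of the other 101, and Top2a in 3 and 4.

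RNA of other cells was present in the members and differed between sets. Erythroid marker sums were 217.0, 1525, 37050 and 324.0 CPM, and hepatocyte marker sums 90.4, 3180, 177.9 and 3023 CPM. The 3 basophil and mast cell markers were at 0, as was Siglech, which the rule required. At least 2 markers of another lineage were found in 114 members, and in 35 when hepatocyte, erythroid and plasmacytoid dendritic cell markers were not counted. Barcodes of 9 members also occurred in another set. No doublet caller was run.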

How the data were processed

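Single-cell RNA was measured in 4 samples. The libraries were 10x 3' v2, read on a HiSeq XTEN, per the labels' protocols. The authors' tools were Seurat, Cell Ranger and CASAVA 1.8 on mm10, per the submitters' processing notes. The sources used here name no filter on cells. The deposited values are the natural log of 1 plus UMIs per 10000 of the cell, as read from the values: turned back, they sum to 10000 in every cell. Whole UMIs were recovered (100% whole at a tolerance of 0.001), 65920312 in all over 24802 cells and 17813 genes.

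CPM is the summed UMIs of a class and set over all its UMIs. Genes with at least 20 UMIs over both classes were compared, leaving out the rule's genes. With cells pooled and no map to samples, no test was run and no p-value is given. Exact intervals cover counting error only. Named genes were the 12 highest and 12 lowest called genes with at least 50 UMIs, and list genes with at least 50 CPM. Wnt10a and other genes below these limits were named after their values were seen. Some list genes are not reported here. The members, the 19 gene lists and the comparisons were chosen with earlier results of these data known. The comparison was tested on simulated Poisson counts without variation between cells. That test cannot show how calls fare where single cells hold many of a gene's UMIs. Python 3.11.15, numpy 2.4.6, scipy 1.17.1, pandas 2.3.3 and matplotlib 3.10.9 were used.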

Additional observations from a re-analysis of the deposited data

How the results depend on the processing

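Of the pairs of a single gene and a setting, 1229 stayed on the same side of the 2-fold call, whether called or not. The call was lost in 59, gained in 20 and reversed in none. A sign change of a gene that stayed uncalled did not count as a reversal, and such changes occurred. Between IgM and IgG members, medians over the settings ran from -0.66 to 3.89 for Ms4a1, -1.9 to 0.65 for Ccr10 and -2.09 to 0.23 for Oosp1. Of list medians, 759 stayed, 96 moved and 6 reversed. Settings that removed mixed cells (2 or more markers of another lineage, with hepatocyte, erythroid and plasmacytoid dendritic cell markers not counted) or cells with shared barcodes, centred the medians, or applied the 200 or 90% limits between IgM and IgG members were chosen after seeing the data, as were the values without the single cell richest in Slpi or Igha and the lambda share by cells at a level of 200.

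Against IgA plasma cells, the 5 higher and 1 lower became 14 and 29 with a pseudocount of 1. The lower count was 7 without immunoglobulin genes in the totals, 5 with means over cells, 14 with thinned cells, 3 at a level of 20, 2 at 200, 3 with 3 of 5 secretory genes, 2 with 90% purity, 8 without mixed cells, 3 without shared barcodes and 2 centred. Leaving out each set gave 5 to 7 higher and 1 to 5 lower. Against B cells, the 85 higher and 710 lower became 236 and 196 without immunoglobulin genes, 132 and 1597 with a pseudocount of 1, 135 and 1089 without mixed cells, and 172 and 194 centred. Thinning gave 38 higher and a level of 20 gave 298 lower. Leaving out each set gave 87 to 114 higher and 796 to 1183 lower, the last without set 4. Against both classes, 3 sets in place of 4 had to meet the call without mixed cells and without shared barcodes. Without immunoglobulin genes the medians of the homing, interferon and ribosome lists turned to 0.14, 0.04 and 0.01, and centring turned the interferon list to 0.16.

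Between IgM and IgG members, the 9 higher and 23 lower became 41 and 36 with means over cells, 1 and 6 with at least 100 UMIs, 52 and 69 without a filter, 21 and 42 with a pseudocount of 1, 18 and 47 with 90% purity, 28 and 60 without mixed cells, and 21 and 51 without shared barcodes. The lower count was 35 without immunoglobulin genes, 14 with thinned cells and 38 at a level of 200. The main comparison had 3 sets, but only 1 was left without mixed cells. With 90% purity, without shared barcodes, with thinned cells, at a level of 200 or leaving out a set, 2 were left. Fewer sets then had to meet the call, so these counts are not like for like. Leaving out each set gave 9 to 64 higher and 23 to 77 lower, the highest of both without set 3. The survival list turned to -0.16 without mixed cells and the interferon list to 0.02 without shared barcodes. The causes were not tested.

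The 122 members became 8 without any cell with 2 markers of another lineage, where no gene comparison could be made, and 81 to 112 leaving out a set. The Ighm share of 39.3% became 54.2% at a level of 20, 29.4% with 3 of 5 secretory genes and 25% without any cell with 2 markers of any other lineage, and was 32.5 to 43.2% leaving out a set. The lambda share of 4.69% became 4.52% at a level of 200, 1.56% without those same cells and 3.59% without mixed cells, and was 3.07 to 7.08% leaving out a set, highest without set 1. Sharing of V genes gave no value, since 1 member had an assigned heavy chain V gene. No paired analysis was possible because the replicate numbers of the samples are not tied to the barcode sets. Every log2 ratio was taken inside 1 barcode set.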
